A study of Mus musculus with 16 samples.

Results

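The response to loxoribine plus CpG was described in dendritic cells of the Ex3a OVX arm, whose source label gives an ERα-null genotype, in ovariectomized mice with an estradiol pellet. The comparison took the 4 Ex3a OVX libraries (2 with agonists, 2 with vehicle) of 16 in the series and all 24001 gene rows, of which 11346 passed the filter on low values and were tested. All cells came from the marrow of NZM2410 mice, an inbred strain that develops lupus, and were grown for 7 days with GM-CSF at 20 ng/ml and IL-4 at 10 ng/ml. Agonists or vehicle were given for 24 h, with CpG at 1 μg/ml and loxoribine at a labelled dose of 200 μmol/ml, whose unit the labels alone do not let one verify. The mice were ovariectomized at 4 to 8 weeks of age and carried a 0.25 mg, 90-day pellet of 17β-estradiol, so vehicle and agonist cells shared genotype, surgery and hormone. ERKO OVX, which had the same surgery and pellet and which its source label gives as ERα short, and unoperated WT, both with 2 libraries per treatment, served for comparison. The unoperated KO group, ERα short by its source label and with 2 libraries per treatment, served with WT to estimate the error. In ERKO OVX and KO the genotype tag names tm4.2Ksk in the vehicle libraries and tm1Ksk in the agonist libraries, and the descriptions differ likewise. In the Ex3a OVX libraries the genotype tag names the Esr1 tm1Ksk allele and the description names the truncated receptor ERα short, both against the source label. The tags were the same in vehicle and agonist libraries, so this conflict did not separate the groups of the main comparison.

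Loxoribine, a guanosine analogue, activates TLR7, and CpG DNA activates TLR9. Both receptors sit in endosomes and signal through the adaptor MyD88 to NF-kB and interferon regulatory factors. Dendritic cells stimulated this way secrete cytokines, display costimulatory molecules and rearrange antigen presentation, and in lupus the same receptors meet self nucleic acids. ERα, encoded by Esr1, is a hormone-activated transcription factor that dendritic cells and their precursors express.

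Levels are FPKM values, that is, fragments scaled by transcript length and by the fragments mapped in the library. In the following, M stands for mega. Depth estimated from the steps between low values was 22.95 and 23.5 M fragments in the vehicle libraries and 17.8 and 18.3 M in the agonist libraries, so the agonist libraries were shallower. The 2 libraries of each group differed by about sampling noise, with a median variance over sampling variance of 1.40 for vehicle and 0.596 for agonists. Each pair was therefore counted as 1 sample, and the error of each test came from the unoperated libraries of the series, so the spread within a pair did not enter its test. Of the 4238 genes that passed in the comparison below, 13 had overlapping libraries. Nothing in the labels says that the libraries came from separate mice, so p-values measure a spread that may be technical. Fold changes were computed as differences of log2(FPKM + 1), so those of low genes come out too small, and the error after ± is limma's standard error.

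Esr1 was low in all 4 libraries, at 0.347 and 0.283 FPKM with vehicle and 0.364 and 0.317 FPKM with agonists, and the groups overlapped. These levels lay below those of ERKO OVX (1.02 and 0.982 with vehicle, 1.12 and 1.16 with agonists). A value per gene does not tell which allele a library carries. The cells carried transcripts of both dendritic cells and macrophages. Itgax, which encodes CD11c, was at 86.3 and 86 FPKM with vehicle, and the macrophage markers Csf1r, at 529 and 525, and Emr1, which encodes F4/80, at 612 and 609.5, were higher. The dendritic cell marker Cd209a was listed at 0 throughout, while Cd74, on the same marker list, lay above Csf1r and Emr1. Summed over 13 dendritic cell markers the level was 10786 and 10778 FPKM with vehicle and 8881 and 8807 with agonists. Over 15 macrophage or monocyte markers it was 21452 and 21517 with vehicle and 19267 and 19131 with agonists. Most of the dendritic cell sum and of its fall came from Cd74, and most of the macrophage sum from Lyz2, both given below. The median log2 change of the 12 dendritic cell markers tested was -0.06. Summed over 7 markers each, T cells gave 13.4 to 17.7 FPKM and B cells 6.31 to 9.02 over the 4 libraries, and 8 erythroid markers summed to 1.37 at most. The sum of 7 NK cell markers was 49.2 and 50.1 FPKM with vehicle and 70.6 and 69.6 with agonists. Most of it came from the granule genes Gzma, Gzmb and Prf1. The lineage markers Ncr1, Klrb1c, Klra8 and Eomes reached at most 1.285, 0.406, 0.216 and 0.545 FPKM. The sum of 9 mast cell or basophil markers was 61.5 and 62 with vehicle and 44.8 and 44.5 with agonists. Neutrophil markers had the median farthest from 0 of the marker lists. Of 9 tested 6 fell and 1, Camp, rose (median -0.56), and 3 fell with 0.1 FPKM added or a filter at 5 FPKM. Prtn3 and Mpo, granule enzymes of neutrophil precursors, fell from 18.2 and 19.2 to 9.39 and 7.93 and from 16 and 16.5 to 8.3 and 8.19 FPKM, while the sum over 11 neutrophil markers, most of it from S100a8, S100a9 and Mmp8, was 383 and 387 with vehicle and 362 and 372 with agonists. The part of such cells in the results was not tested. In bulk RNA, fewer cells of a type and less RNA per cell cannot be told apart, here and in what follows.

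Of the 11346 genes tested, 2168 were higher and 2070 lower with agonists (limma, Benjamini-Hochberg adjusted p under 0.05), which is 19.1% and 18.2%. Most of these changes were small. The median log2 fold change of all tested genes was 0.01, and 45 genes rose and 30 fell more than 2-fold. Abundant transcripts changed as well as rare ones. The acute phase gene Saa3 was at 4022 and 4009 FPKM with vehicle and 7120.3 and 7120.3 with agonists (0.83 ± 0.08, limma adjusted p = 0.000132). Fth1, the ferritin heavy chain gene and the highest in every library of the arm, went from 22329 and 22310.0 to 31754 and 31630.0 FPKM (0.51 ± 0.06, limma adjusted p = 0.000199).

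**Figure D1:**
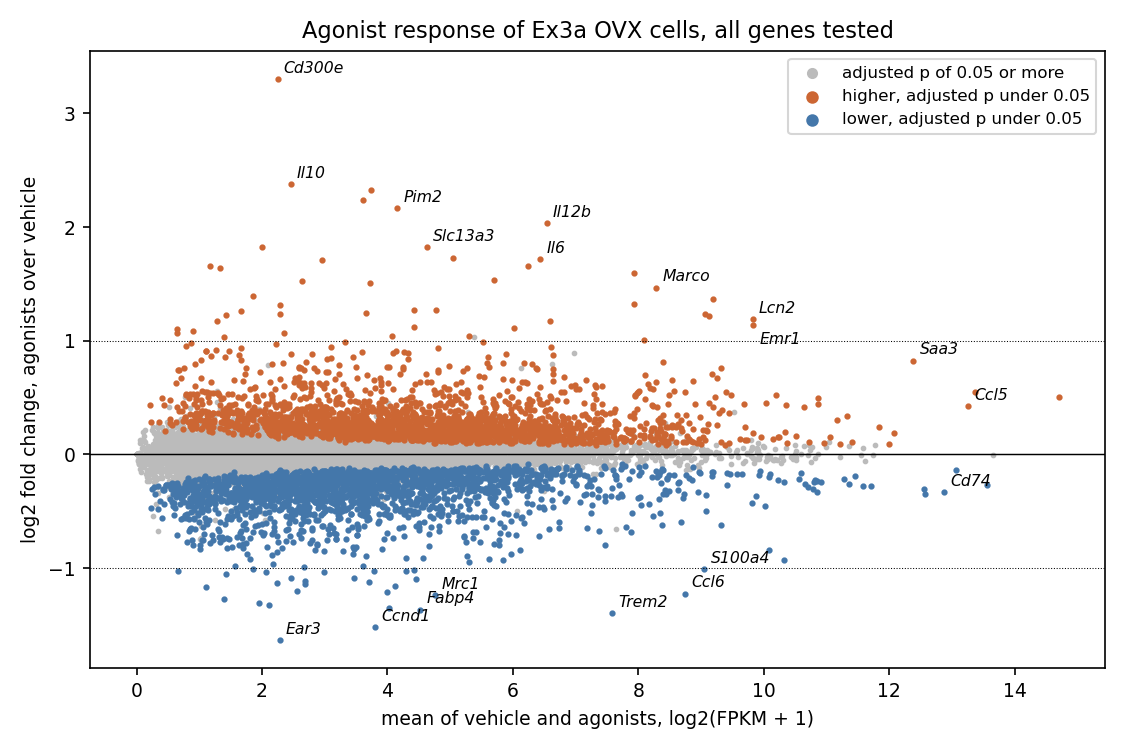
Each point is a gene tested in Ex3a OVX cells, with the mean level on log2(FPKM + 1) on the x axis and the log2 fold change of agonists over vehicle on the y axis; colours mark limma adjusted p under 0.05 and dotted lines mark 2-fold. The 45 genes above the upper line reach a log2 change of 3.30, and the 30 below the lower line reach -1.63.

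Of the genes with at least 5 FPKM in the higher group, the 12 largest rises held 4 cytokines, several receptors and enzymes and a transporter. Cd300e (GRCm38, chromosome 11, 115051917 to 115062177), an activating receptor of myeloid cells, went from 0.517 and 0.505 FPKM in the vehicle libraries to 13.7 and 14.1 in the agonist libraries (3.30 ± 0.08, limma adjusted p = 4.51e-08, 27.3-fold in FPKM). Il10 (chromosome 1, 131019845 to 131024974), the cytokine that restrains inflammatory gene expression, went from 1.48 and 1.34 to 11.1 and 11.9 FPKM (2.38 ± 0.13, limma adjusted p = 3.18e-06). In both genes the lowest agonist library was several times above the highest vehicle library. Il12b (chromosome 11, 44400063 to 44414033), the p40 subunit shared by interleukins 12 and 23, was already present with vehicle at 44.8 and 44.9 FPKM and reached 187 and 186 (2.03 ± 0.05, limma adjusted p = 5.16e-08). Il6, which drives the acute phase response and B cell help, went from 48.9 and 44.7 to 158 and 155 FPKM (1.72 ± 0.07, limma adjusted p = 4.93e-07). Il1a, an alarm cytokine that acts through the IL-1 receptor, went from 138 and 139 to 424 and 421 FPKM (1.60 ± 0.13, limma adjusted p = 0.000199). These 3 cytokines rose 3.05- to 4.16-fold in FPKM from levels that were substantial before the agonists were given.

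The other 7 of the 12 largest rises were not cytokines. Slc13a3 (chromosome 2, 165405028 to 165473230), a sodium-coupled carrier of dicarboxylates such as succinate, went from 12.1 and 12.2 to 46.6 and 44.6 FPKM (1.83 ± 0.09, limma adjusted p = 1.62e-06). Pim2, a kinase that supports survival of blood cells, went from 7.5 and 7.26 to 36.7 and 36.7 FPKM (2.17 ± 0.09). Lox, the lysyl oxidase that crosslinks collagen, went from 17.2 and 17.2 to 60.2 and 58.8 FPKM (1.73 ± 0.07). Each of these 3 was higher in both agonist libraries by more than 3-fold. Vnn3, of the vanin family of pantetheinases, rose by 1.65 and Fcrls, a scavenger receptor related to Fc receptors and best known from microglia, by 1.71 log2 units. Fcrls was low with vehicle, at 3.56 and 3.07 FPKM, and reached 13.4 and 12.8. Rnaset2a, a ribonuclease of the T2 family, went from 3.74 and 5.54 to 24.9 and 26.3 FPKM, but has a near-identical copy, Rnaset2b, between which reads may have been split. U90926 rose from 5.73 and 4.17 to 30 and 27.8 FPKM. In both of these last genes the 2 vehicle libraries were further apart, as a ratio, than the agonist libraries. Adjusted p-values of these 7 in the limma fit ran from 5.61e-07 for Lox to 0.000189 for U90926.

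**Figure D2:**
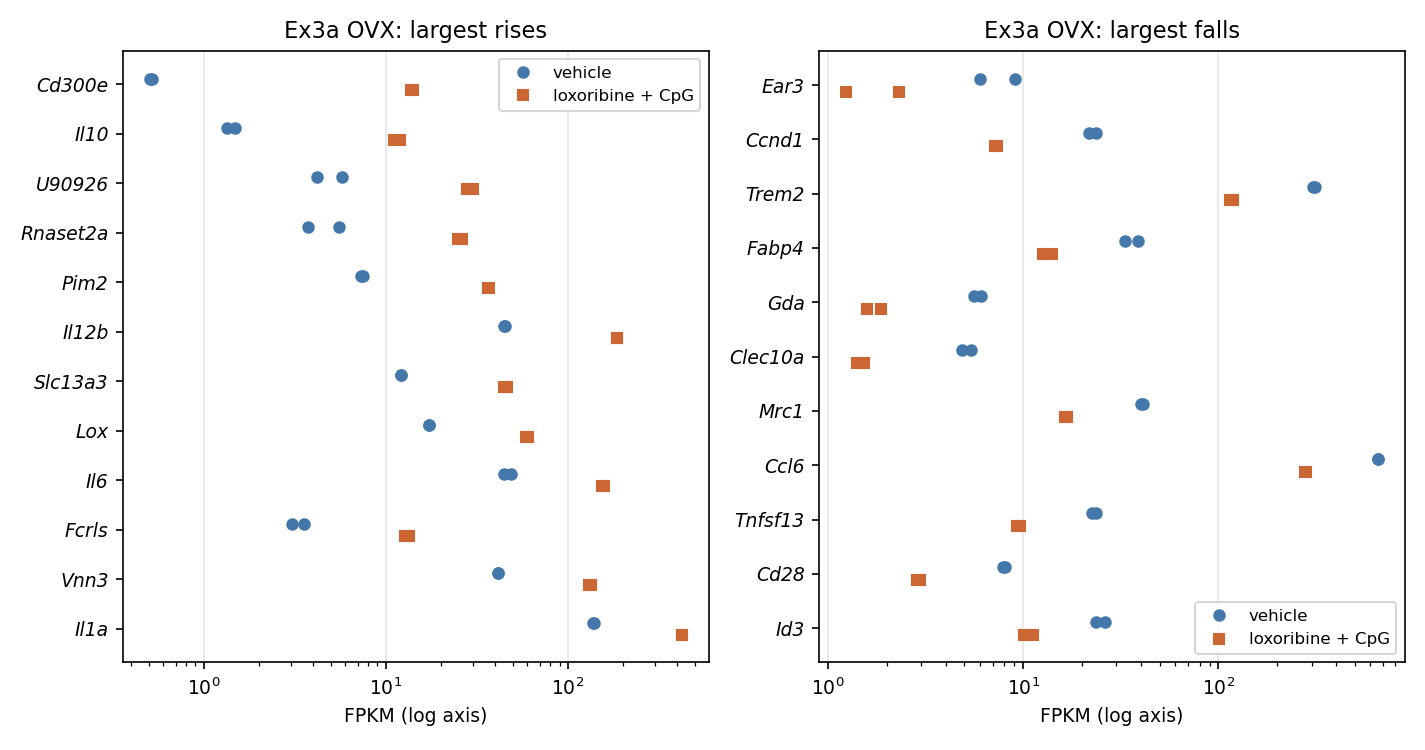
FPKM on a log axis for the 12 genes with the largest rises (left) and 11 of the 12 with the largest falls (right) in Ex3a OVX cells; circles are the 2 vehicle libraries and squares the 2 agonist libraries. No gene shown has overlapping groups, because the rule for naming genes required this. Cd300e has the widest gap, from 0.517 and 0.505 to 13.7 and 14.1 FPKM, and Ear3 the widest spread within a pair.

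The stretches before the start sites of Il6, Slc13a3 and Il1a are shown because these are the largest rises whose 250 bases before the RefSeq start hold any of 3 short motifs, searched on both strands: GGGNNNTTC for NF-kB, TGANTCA for AP-1 and GAAANNGAA for interferon-stimulated response elements, with capitals marking the matches. The Slc13a3 stretch is 217 bases long, ending where the GENCODE model of the gene begins. The sequences are from RefSeq on GRCm38.p6, read 5′ to 3′ on the strand of the gene.
Il6 (chr5:30012864-30013113, plus strand): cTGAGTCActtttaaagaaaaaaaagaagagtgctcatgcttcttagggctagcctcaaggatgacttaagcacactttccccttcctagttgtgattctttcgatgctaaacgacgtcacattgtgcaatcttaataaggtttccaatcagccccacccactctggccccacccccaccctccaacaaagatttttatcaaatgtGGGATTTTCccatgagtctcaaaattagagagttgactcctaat
Slc13a3 (chr2:165473231-165473447, minus strand): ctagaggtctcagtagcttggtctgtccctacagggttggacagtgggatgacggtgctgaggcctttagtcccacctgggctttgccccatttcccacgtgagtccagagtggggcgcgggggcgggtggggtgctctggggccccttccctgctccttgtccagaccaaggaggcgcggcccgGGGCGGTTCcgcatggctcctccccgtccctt
Il1a (chr2:129309973-129310222, minus strand): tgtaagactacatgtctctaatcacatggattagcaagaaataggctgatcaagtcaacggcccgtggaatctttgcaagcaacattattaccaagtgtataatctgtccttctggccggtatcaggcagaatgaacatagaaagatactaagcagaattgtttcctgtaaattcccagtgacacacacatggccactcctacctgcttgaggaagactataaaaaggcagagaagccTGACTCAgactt
In Il6 the NF-kB motif starts 44 bases before the start site and the AP-1 motif 249 bases before it. The NF-kB motif of Slc13a3 starts 65 bases before the start, and the AP-1 motif of Il1a 12 bases before it. Of all 32851 promoter entries, 11.8% held the NF-kB motif, 6.75% the AP-1 motif and 7.13% the interferon motif. Among the 34 entries of genes over 2-fold higher, 14.7%, 11.8% and 5.88% did, that is 5, 4 and 2 entries. Among the 29 entries of genes over 2-fold lower none held the NF-kB motif, 13.8% the AP-1 motif and 10.3% the interferon motif, and among the 11000 entries of genes tested 13%, 4.64% and 6.45% did. Entries of Cd300e, U90926, Pim2, Il12b, Fcrls and Vnn3 held no match in the 250 bases searched. Of the 2 entries of Rnaset2a the one with a match lies inside the gene model and is not shown. Il10 and Lox are named only. A match is a run of letters and does not show that a factor binds.

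Among interleukins and TNF family cytokines, 13 of 26 genes rose and 2 fell, with a median log2 change of 0.33 against 0.01 over all genes, of which 19.1% rose and 18.2% fell. The falls numbered 4 without the second agonist library of the arm or either WT agonist library, after median ratio scaling, with a trend in transcript length removed and in the fits of other sample sets. Both subunits of interleukin 12 rose, since Il12a, the p35 subunit, went from 7.02 and 7.39 to 18.4 and 18.5 FPKM (1.24 ± 0.10, limma adjusted p = 1.53e-05). Il1b, the secreted pyrogen, was far more abundant and went from 365 and 367 to 856 and 846 FPKM (1.22 ± 0.21, limma adjusted p = 0.00964). Its natural antagonist Il1rn rose as well but by less, from 369 and 369 to 458 and 453 FPKM (0.30 ± 0.04). Il23a, the p19 partner of Il12b in interleukin 23, was at 0.671 and 0.852 FPKM with vehicle and 0.568 and 0.467 with agonists and did not pass the test. Tnf went from 90.4 and 93.1 to 173 and 169 FPKM (0.89 ± 0.29), groups that did not overlap, yet it missed the threshold (limma adjusted p = 0.0738). The error of the test came from the unoperated libraries. With only the 4 Ex3a OVX libraries in the fit the adjusted p was 6.57e-07, without either WT vehicle library 0.000126 to 0.000127, and it passed in 8 of 28 alternatives. Cxcl1 and the prostaglandin synthase Ptgs2 missed it in the same way and passed in 11 and 12 of 28. The cytokines that fell in the main comparison were Csf1, which sustains macrophages, from 177 and 178 to 129.6 and 130.3 FPKM, and Tnfsf13, the B cell survival factor APRIL, from 23.6 and 22.6 to 9.26 and 9.61 (-1.21 ± 0.06, limma adjusted p = 1.32e-06). Costimulatory ligand Tnfsf4, or OX40L, rose from 34.9 and 35.4 to 53.9 and 53.1 FPKM (0.59 ± 0.05).

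Chemokines moved both ways. Of 12 CC chemokines 5 rose and 3 fell, with a median of 0.01, and 5 fell with 5 FPKM added or in the fits of all 16 libraries, of the 8 ovariectomized libraries and of the 4 libraries of the arm. Ccl3 and Ccl4, attractants of monocytes and T cells, rose from 366 and 361 to 938 and 937 FPKM (1.36 ± 0.08, limma adjusted p = 6.41e-06) and from 346 and 347 to 819 and 816 FPKM (1.24 ± 0.15, limma adjusted p = 0.00145). The CCR4 ligands Ccl17 and Ccl22 rose by 0.35 and 0.49 log2 units, and Ccl5, among the most abundant transcripts of these cells, from 8412 and 8426 to 11377 and 11257 FPKM. Ccl6 and Ccl9, chemokines of the mouse macrophage lineage, fell, Ccl6 from 657 and 656 to 279 and 282 FPKM (-1.22 ± 0.04, limma adjusted p = 2.46e-07). The monocyte attractants Ccl2 and Ccl7 had log2 changes of 0.00 and 0.02 and did not pass. Of 11 CXC chemokines 4 rose and 4 fell (median 0.15). The neutrophil attractants Cxcl2 and Cxcl3 rose little, Cxcl2 from 71.7 and 67.5 to 90.6 and 92.9 FPKM (0.39 ± 0.12, limma adjusted p = 0.0428). Pf4 and Ppbp, best known as platelet chemokines, fell from 795 and 790.1 to 512 and 519 and from 15.7 and 16.6 to 8.49 and 6.86 FPKM. Of the interferon-induced CXCR3 ligands, Cxcl9 rose from a low level, Cxcl11 fell, and Cxcl10, at 205 and 202 FPKM with vehicle and 192 and 193 with agonists, did not pass. Among 8 chemokine receptors Ccr7, which guides mature dendritic cells to lymph nodes, and Ccrl2 rose and 5 fell. The largest of these falls was that of Ccr2, the receptor of blood monocytes, from 10.6 and 10.2 to 4.66 and 4.45 FPKM (-1.03 ± 0.12, limma adjusted p = 0.000133).

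NF-kB subunits and feedback genes rose in 13 of 21 cases and fell in 3 (median 0.24). Nfkbiz, a nuclear IkB protein needed for secondary response genes such as Il6 and Il12b, went from 13.5 and 13.5 to 31.2 and 29.9 FPKM (1.12 ± 0.05, limma adjusted p = 1.2e-06). The inhibitors Nfkbia (0.52), Tnip1 (0.53) and Tnfaip3 (0.32) and the ribonuclease Zc3h12a (0.55), which degrades cytokine mRNA, rose by the log2 changes given. The subunits Nfkb1 and Nfkb2 rose by 0.21 and 0.24, while Rela and Relb, at -0.09 and -0.01, did not pass. Bcl3, Zfp36 and Nfkbie, 3 further regulators of the pathway, fell by 0.14 to 0.18 log2 units.

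The receptors of the agonists themselves were lower. Tlr7 went from 36.8 and 37.2 to 29.5 and 30 FPKM (-0.31 ± 0.05, limma adjusted p = 0.00187) and Tlr9 from 22.8 and 23 to 19.7 and 18.9 (-0.24 ± 0.05, limma adjusted p = 0.00491). Tlr8, from 19.1 and 18.7 to 12.8 and 12.7 FPKM, and Tlr13, from 92.1 and 91.3 to 79.7 and 78.2, other endosomal receptors of RNA, fell too. The signalling adaptor Myd88 and the trafficking chaperone Unc93b1, both with a log2 change of 0.01, did not pass. Across the 26 pathway genes 9 rose and 8 fell. The rises included Irak3, an inhibitor of TLR signalling, from 53.6 and 53.5 to 94.3 and 94.2 FPKM (0.80 ± 0.06), the endolysosomal peptide transporter Slc15a3, from 450.0 and 455 to 745 and 731 (0.70 ± 0.03), and the chaperone Hsp90b1 (0.40) on which TLR folding depends.

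Of 32 interferon-stimulated genes 14 rose, 17 did not pass and 1, Oas2, fell, with a median of 0.10. After quantile normalization 10 rose, and 5 fell in the fit of only the 8 ovariectomized libraries. The antiviral genes Ifit1 and Rsad2 had the largest changes, Ifit1 from 137 and 138 to 209 and 209 FPKM (0.60 ± 0.06, limma adjusted p = 6.58e-05) and Rsad2 from 207 and 205 to 296 and 297 (0.52 ± 0.08). Isg15, a ubiquitin-like modifier, was already at 893 and 891 FPKM with vehicle and reached 1221 and 1221. Irf7, the factor that amplifies interferon production, was at 745 and 753 FPKM with vehicle and 769 and 772 with agonists and did not pass. Interferon-induced GTPases rose in 7 of 15 cases (median 0.15), and 8 did not pass. Of the guanylate-binding proteins, which attack intracellular pathogens, Gbp2, Gbp3, Gbp4, Gbp5, Gbp6 and Gbp7 rose by 0.43 to 0.66 log2 units, with Gbp2 going from 98.3 and 96.9 to 153 and 145 FPKM. Ifnb1 itself was low, at 2.52 and 2.85 FPKM with vehicle and 3.7 and 4.94 with agonists (0.53 ± 0.10, limma adjusted p = 0.0025). Ifng, made mainly by NK and T cells, went from 1.23 and 1.47 to 3.05 and 2.33 FPKM (0.65 ± 0.08). The higher NK cell marker sum given above came mostly from granule genes. The part of NK cells in the rise of Ifng was not tested. The receptor chains Ifnar1 and Ifngr1 fell by 0.31 and 0.54 log2 units, and Irf1, Irf2, Irf5 and Irf8 fell by 0.16 to 0.39.

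Dendritic cell maturation genes were mostly higher, with 16 of 20 rising, 1 (Pdcd1lg2) falling and a median of 0.25. Cd40, the receptor for T cell help, went from 72.4 and 72.2 to 136 and 131 FPKM (0.88 ± 0.06, limma adjusted p = 6.62e-06). The actin-bundling protein Fscn1 of mature dendritic cells went from 212 and 211 to 312 and 311 FPKM (0.56 ± 0.04) and Ccr7 from 205 and 209 to 306 and 297 (0.54 ± 0.04). The B7 molecules Cd80 and Cd86 rose by 0.35 and 0.26 log2 units and Cd83 by 0.38, all without overlap of the groups.

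MHC class II presentation moved the other way. Of 12 genes 10 fell, while H2-Oa and Rfx5 did not pass, and the median was -0.32. Without the first vehicle or first agonist library of the arm, or either WT vehicle library, 1 rose. Cd74, the invariant chain, fell from 8403 and 8403 to 6704 and 6657 FPKM (-0.33 ± 0.02, limma adjusted p = 1.08e-05), and H2-Aa, a chain of the I-A molecule, from 2873 and 2864 to 2412 and 2379 FPKM (-0.26 ± 0.03). Ciita, the transactivator on which class II transcription depends, fell from 17.1 and 17.1 to 12.8 and 13.1 FPKM (-0.38 ± 0.04, limma adjusted p = 0.000108). The peptide-loading genes H2-DMa (-0.42) and H2-DMb1 (-0.36) and the invariant chain protease Ctss (-0.31) fell by similar amounts. Of 18 class I genes, 6 rose slightly, among them H2-D1 (0.10) and the proteasome activator Psme2 (0.22), and 12 did not pass. This count fell to 3 after quantile normalization and to 4, with 1 fall, when a trend with transcript length was removed. B2m, the light chain of class I molecules, was at 12946 and 12965 FPKM with vehicle and 12986 and 12826 with agonists.

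**Figure D3:**
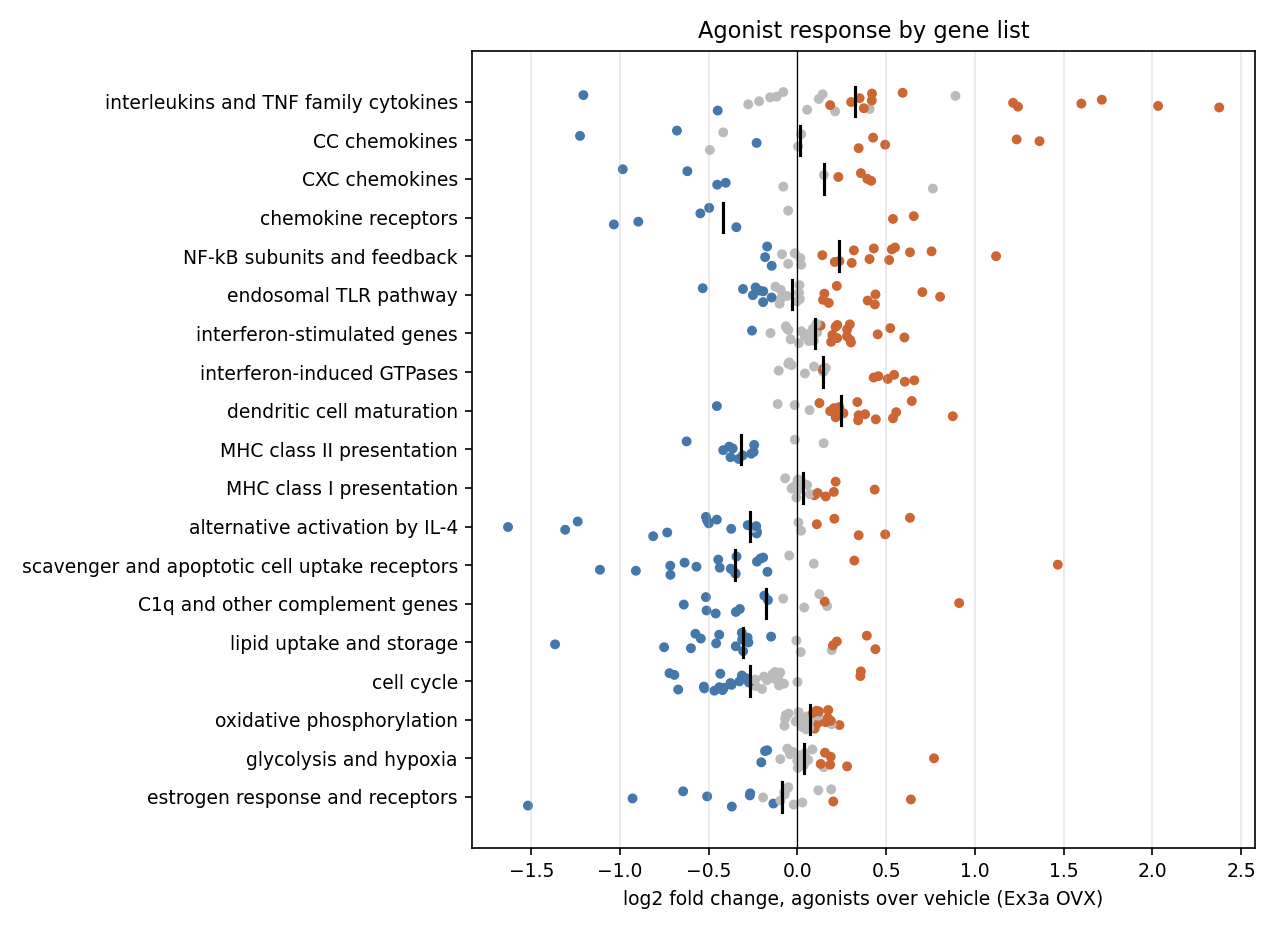
Each point is a gene of the list named on the y axis and the x axis is its log2 fold change of agonists over vehicle in Ex3a OVX cells; orange points rose and blue points fell at limma adjusted p under 0.05, grey points did not pass, and black bars are medians. Medians run from -0.42 for chemokine receptors to 0.33 for interleukins and TNF family cytokines.

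The largest falls held surface receptors, a lipid carrier, a chemokine and a regulator of the cell cycle, and 11 of the 12 chosen by the same rule are given here. Ccnd1 (chromosome 7, 144929931 to 144939925), or cyclin D1, went from 23.6 and 21.8 to 7.18 and 7.37 FPKM (-1.52 ± 0.07, limma adjusted p = 9.93e-07). Trem2 (chromosome 17, 48346401 to 48354147), a receptor for lipids and apoptotic cells, fell from 303 and 314 to 119 and 114 FPKM (-1.40 ± 0.05, limma adjusted p = 2.46e-07). With agonists both were at 0.32 to 0.378 of the vehicle level in FPKM. The lectins Mrc1, the mannose receptor, and Clec10a, a galactose receptor, fell from 40.8 and 40.3 to 16.4 and 16.8 FPKM (-1.24 ± 0.06) and from 5.38 and 4.84 to 1.53 and 1.41 (-1.31 ± 0.12). Fabp4, a fatty acid carrier, fell from 33.3 and 38.6 to 14 and 12.7 FPKM (-1.37 ± 0.08). Ear3, an eosinophil-associated ribonuclease, had the largest fall, from 9.11 and 6.03 to 2.3 and 1.23 FPKM (-1.63 ± 0.26, limma adjusted p = 0.00437), but its libraries within a group lay furthest apart of the 24 genes and its family holds near-identical copies. The others were the guanine deaminase Gda (-1.32), Ccl6 and Tnfsf13 (above), the costimulatory receptor Cd28 (-1.20) and Id3 (-1.15), an inhibitor of helix-loop-helix factors.

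Genes that IL-4 induces in alternatively activated macrophages fell in 14 of 22 cases and rose in 5 (median -0.27), and 3 rose with 5 FPKM added or in the fit of only the 4 libraries of the arm. Arg1, the arginase that competes with nitric oxide synthase, was low and fell from 2.57 and 3.01 to 1.31 and 1 FPKM (-0.81 ± 0.10). Chil3, an abundant chitinase-like protein, fell from 1296 and 1297 to 1107 and 1108 FPKM (-0.23 ± 0.03). Those that rose were Socs1, Ccl17, Ccl22, Irf4 and Retnla, the last from under 0.3 FPKM.

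Scavenger receptors and apoptotic cell uptake genes fell in 16 of 20 cases (median -0.35). Gas6, a bridge between dying cells and TAM receptors, fell from 8.4 and 8.43 to 3.27 and 3.44 FPKM (-1.11 ± 0.10, limma adjusted p = 4.01e-05), and its receptor Axl from 108 and 108 to 65.6 and 65.1 (-0.72 ± 0.05). Mfge8, another bridge, fell from 279 and 277 to 179 and 178 FPKM (-0.64 ± 0.03) and Lrp1 by 0.72 log2 units, whereas the TAM receptor Mertk, at 0.09, did not pass. The 2 that rose were Olr1, which binds oxidized LDL, and Marco, a collagen-like scavenger receptor for bacteria and particles. Marco went from 186 and 187 to 521 and 514 FPKM (1.47 ± 0.06, limma adjusted p = 3.58e-07).

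Complement genes fell in 8 of 14 cases and rose in 2 (median -0.18). The rises numbered 4 in the fits of only the 8 ovariectomized or the 4 Ex3a OVX libraries and 1 with a filter at 5 FPKM. The 3 chains of C1q, which helps clear immune complexes, fell together, C1qc from 282 and 284 to 203 and 194 FPKM (-0.51 ± 0.08), C1qa by 0.46 and C1qb by 0.35 log2 units. Itgam, a chain of the receptor CR3, fell by 0.52 and the anaphylatoxin receptor C5ar1 by 0.64. The rises were Cd55, which limits complement on the cell's own surface, from 1.02 and 1.01 to 3.03 and 2.55 FPKM, and factor B, Cfb. Over 15 macrophage or monocyte markers 10 fell and 2, Emr1 and Cd14, rose. Emr1 went from 612 and 609.5 to 1353 and 1335 FPKM (1.14 ± 0.04, limma adjusted p = 3.38e-07) while Lyz2 went from 13256 and 13274 to 11006 and 10973. The part of a changed share of macrophages, or of the neutrophil transcripts that fell beside them, in the falls of C1q and the uptake genes was not tested.

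Lipid uptake and storage genes fell in 14 of 21 cases and rose in 4 (median -0.31), and 2 rose when library scaling changed, when the length trend was removed or when either the first vehicle or the first agonist library was left out. Lpl, the lipase that releases fatty acids from lipoproteins, fell from 362 and 360.0 to 249.9 and 244 FPKM (-0.54 ± 0.05), Pparg, the fatty acid sensing receptor, from 8.03 and 7.72 to 5.06 and 4.86 (-0.57 ± 0.10), and the carrier Fabp5 from 1215 and 1217 to 893 and 878 (-0.46 ± 0.03). Acsl1, which activates fatty acids, rose from 409 and 409 to 559 and 551 FPKM (0.44 ± 0.05). Sterol synthesis genes rose in 8 of 21 cases and fell in 1, the largest rise being that of Mvd, of the mevalonate pathway (0.35).

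Cell cycle genes fell in 18 of 34 cases and rose in 2 (median -0.27), and 29 fell in the fit of only the 8 ovariectomized libraries. Tk1, the thymidine kinase of S phase, fell from 24.2 and 23.3 to 14.3 and 13.8 FPKM (-0.72 ± 0.07, limma adjusted p = 4.1e-05), the mitotic kinase Plk1 from 10.1 and 10.3 to 5.89 and 6.02 (-0.69 ± 0.07) and the mitotic regulator Birc5 from 34.3 and 35 to 22.1 and 20.7 (-0.67 ± 0.06). Against these, Mki67, a marker of cycling cells, rose from 4.88 and 5.15 to 6.72 and 6.66 FPKM (0.35 ± 0.05, limma adjusted p = 0.00047), as did Tyms, for thymidylate synthase (0.36 ± 0.06). Immediate early factors rose in 3 of 14 cases and fell in 6. Fos, an AP-1 subunit, fell from 67.3 and 65.8 to 33.4 and 36.1 FPKM (-0.92 ± 0.09, limma adjusted p = 9.03e-05), Jun by 0.34 and Myc by 0.51, while Atf3 and Junb rose by 0.32 and 0.31 log2 units.

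Respiration and glycolysis genes had medians close to 0. Of 28 oxidative phosphorylation genes 10 rose, 18 did not pass and the median was 0.07, with Cox5a, of cytochrome oxidase, the largest (0.24 ± 0.05). The count depended on the setting. It was 1 with 3 falls after quantile normalization, 4 with 2 falls after removal of the length trend and 17 with 3 falls in the fit of only the 8 ovariectomized libraries, and 1 fell without the first agonist or the second vehicle library of the arm. Glycolysis and hypoxia genes rose in 6 of 25 cases and fell in 3, near the shares of 19.1% and 18.2% over all genes. After quantile normalization 3 rose and 5 fell, and with no filter on low values 3 rose. Gapdh rose by 0.13 and Ndrg1, a hypoxia-induced gene, by 0.77, while the glucose carrier Slc2a1, the lactate carrier Slc16a3 and Hif1a fell.

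Changes went with transcript length across the arm. The median log2 change of 281 genes with a longest annotated transcript of up to 800 bases was 0.07, and that of 1162 genes of 6000 to 9000 bases was -0.04. In ERKO OVX the same medians were -0.15 and 0.08, the opposite order, and in WT 0.02 and 0.04. Between the 2 vehicle libraries of Ex3a OVX the medians were -0.01 and 0.00. Length had a value for 99.2% of the genes tested. The part of this trend in any single result was not tested. With the trend removed, 1686 genes were more positive and 1389 more negative against ERKO OVX, in place of 1894 and 1666, and 2033 and 1937 against WT, in place of 1926 and 2146. Most list counts moved by a few genes. Counts of the agonist response of the arm that are printed here and moved by more than 1.5 times are given beside the list. Not all such moves are given for counts of differences from ERKO OVX.

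**Figure D4:**
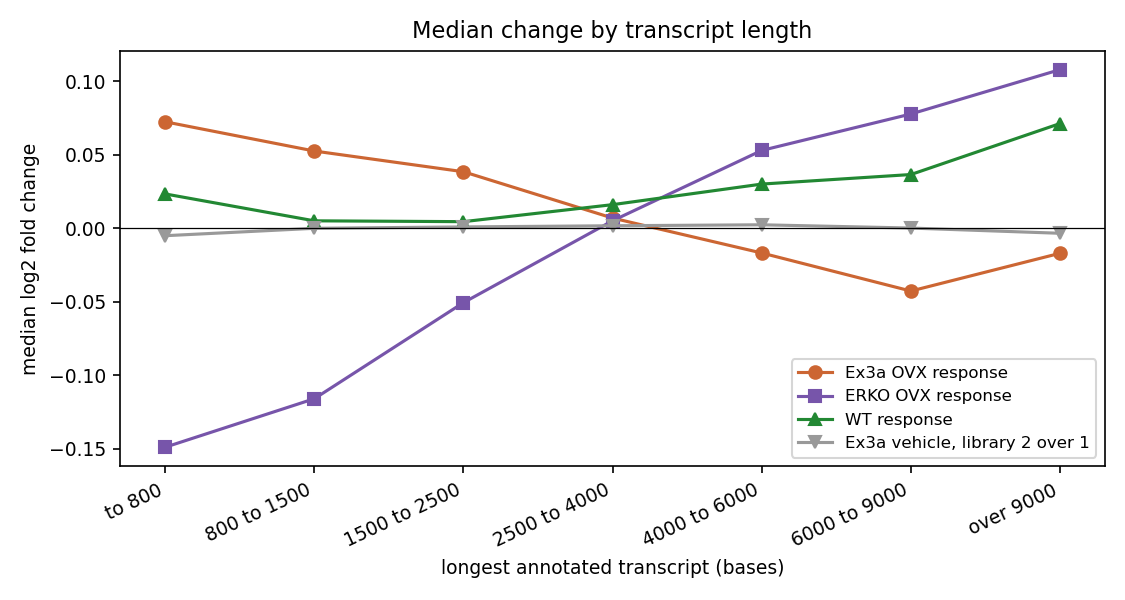
Median log2 fold change of genes grouped by the longest annotated transcript (x axis, bases) for the agonist response in Ex3a OVX, ERKO OVX and WT and, in grey, for the second over the first vehicle library of Ex3a OVX. The Ex3a OVX line falls from 0.07 to -0.04 before the longest group while the ERKO OVX line rises from -0.15.

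Genes tied to estrogen moved in both directions. Of 20 genes of estrogen response and receptors, 8 fell and 2 rose (median -0.08), and 1 rose after quantile normalization. The classical ERα targets Pgr, listed at 0, and Greb1 and the receptors Esr2 and Gper1 lay under 0.2 FPKM in all 4 libraries and were not tested. The falls were led by Ccnd1 and by Igf1, a growth factor made by macrophages, from 78.9 and 77.6 to 40 and 41.2 FPKM (-0.93 ± 0.05, limma adjusted p = 3.34e-06). Rara, the retinoic acid receptor α, fell from 9.69 and 10.2 to 6.11 and 5.91 FPKM (-0.64 ± 0.06). Hsp90aa1, the chaperone that holds steroid receptors, rose from 55.8 and 55.8 to 87.9 and 87.2 FPKM (0.64 ± 0.03). Stat5a, Xbp1 and the corepressor Nrip1 did not pass.

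The response was then set against that of ERKO OVX, with the same surgery and pellet, in a test of the difference between the 2 responses. Of 11346 genes, 1894 (16.7%) had a more positive and 1666 (14.7%) a more negative response in Ex3a OVX (limma adjusted p under 0.05), and 31 and 21 differed more than 2-fold. By the genotype tags the vehicle and agonist libraries of ERKO OVX carry different alleles, null and tm1Ksk, so a mislabelled group there would enter every difference. Across genes the 2 responses had a Pearson r of 0.348, a description over 11346 genes of libraries that share no sample. Of the 45 genes over 2-fold higher in Ex3a OVX, 30 also rose in ERKO OVX, 13 of them over 2-fold, where 18.4% of all genes rose in ERKO OVX. Of the 30 over 2-fold lower, 20 also fell in ERKO OVX, 0 of them over 2-fold, where 19.2% of all genes fell. For 321 genes that rose in Ex3a OVX and fell in ERKO OVX, and 320 that did the reverse, the difference itself passed. These are 14.8% of the rises and 15.5% of the falls in Ex3a OVX, below the shares of all genes that fell and rose in ERKO OVX. Those shares do not require that the difference passed, so they rest on a looser filter.

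Cd300e, Slc13a3, Il10, Fcrls, Il12b, U90926, Rnaset2a and Marco, in that order, had the most positive differences. Cd300e was at 1.25 and 1.2 FPKM with vehicle in ERKO OVX and at 2.17 and 2.61 with agonists, a difference of responses of 2.70 ± 0.11 (limma adjusted p = 3.97e-06). Il10 was at 0.77 and 0.749 FPKM with vehicle and 1.46 and 1.6 with agonists (1.85 ± 0.19, limma adjusted p = 0.000207). Slc13a3 was at 3.42 and 3.48 FPKM with vehicle and 2.91 and 2.71 with agonists (2.05 ± 0.13, limma adjusted p = 3.75e-05). In ERKO OVX, Cd300e and Il10 also rose, by 0.61 and 0.53 log2 units (limma adjusted p = 0.000383 and 0.0129), and Slc13a3 did not pass (-0.22, limma adjusted p = 0.0838). Il12b differed in its starting level: ERKO OVX vehicle libraries were already at 196 and 196 FPKM, above the Ex3a OVX agonist libraries, and reached 262 and 261 (1.62 ± 0.08, limma adjusted p = 1.12e-05). U90926 started at 62.2 and 58.8 FPKM in ERKO OVX and reached 111 and 105 (1.50 ± 0.29, limma adjusted p = 0.00861, 0.128 with 0.1 FPKM added). Marco, at 245 and 247 with vehicle and 265 and 264 with agonists there, did not pass in ERKO OVX, and its difference was 1.37 ± 0.08 (limma adjusted p = 2.96e-05).

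The most negative differences were those of Cxcl2, Ear3, Csf3, Nlrp3, Xist, Pan3, Cxcl1 and Hivep3. Cxcl2 went from 95.4 and 90.5 to 372 and 380.1 FPKM in ERKO OVX against 71.7 and 67.5 to 90.6 and 92.9 in Ex3a OVX (difference -1.61 ± 0.17, limma adjusted p = 0.000907). Csf3, the neutrophil growth factor G-CSF, went from 2.43 and 2.27 to 12.3 and 11.8 FPKM in ERKO OVX and was at 1.44 and 0.915 and then 1.83 and 1.95 in Ex3a OVX, where it did not pass (difference -1.55 ± 0.24, limma adjusted p = 0.00151). Cxcl1 went from 95 and 88.6 to 357 and 361 FPKM in ERKO OVX (difference -1.19 ± 0.32, limma adjusted p = 0.0459), a call lost in 10 of 27 alternatives with adjusted p up to 0.0955. Vehicle levels of Cxcl1 and Cxcl2 were within 2-fold of each other in the 2 arms, and their agonist levels about 4-fold apart. Nlrp3, the inflammasome sensor, fell from 4.89 and 4.61 to 3.72 and 3.56 FPKM in Ex3a OVX and rose from 3.7 and 3.39 to 8.17 and 8.08 in ERKO OVX (-1.32 ± 0.08, limma adjusted p = 3.08e-05). Xist, the RNA that silences an X chromosome in female cells, fell from 8.59 and 8.64 to 4.43 and 4.33 FPKM and rose in ERKO OVX from 7.2 and 7.2 to 9.74 and 9.62 (-1.22 ± 0.11). In unoperated WT it was far higher, at 66.3 and 62.9 FPKM with vehicle and 62.5 and 66.5 with agonists. The cause of the low Xist level in both ovariectomized arms was not tested. Pan3, of a deadenylase complex, fell and rose in the same arms (-1.19 ± 0.08), and Hivep3, a zinc finger protein that binds NF-kB sites, was at 2.35 and 2.3 and then 2.13 and 2.08 FPKM in Ex3a OVX but rose in ERKO OVX (-1.19 ± 0.14). Ear3 was at 14.5 and 17.9 FPKM with vehicle and 16.3 and 14.7 with agonists in ERKO OVX (-1.57 ± 0.36, limma adjusted p = 0.022, 0.0609 to 0.061 without either agonist library of the unoperated KO group), with the limit on its copies given above.

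**Figure D5:**
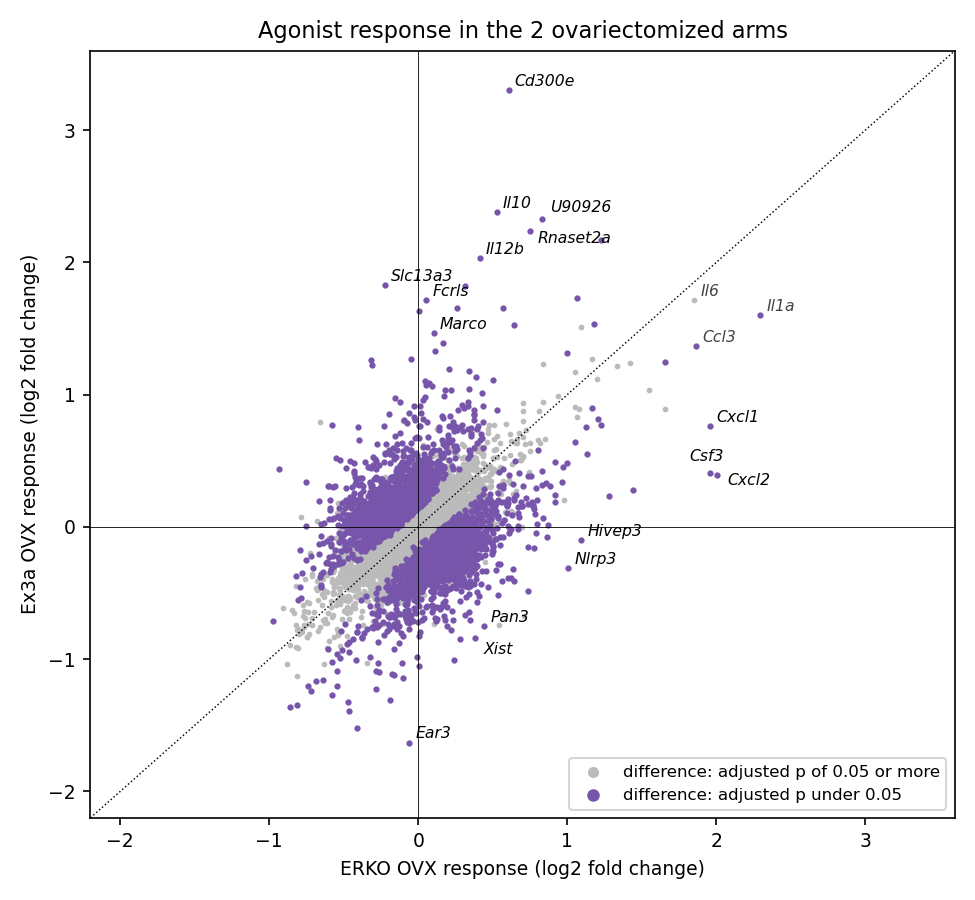
Each point is a gene, with the log2 fold change of agonists over vehicle in ERKO OVX on the x axis and in Ex3a OVX on the y axis; purple marks genes whose responses differ at limma adjusted p under 0.05, and the dotted line marks equal responses. Il6 lies near the line, Cd300e and Il10 above it, and Cxcl1, Cxcl2 and Csf3 to the right of it.

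By list, 8 of 11 CXC chemokines had a more negative and 2 a more positive response than in ERKO OVX (median difference -0.72), and 9 of 21 NF-kB genes a more negative and 2 a more positive one. Il6 rose in both arms, from 86.5 and 87.2 to 319.6 and 312 FPKM in ERKO OVX, with a difference of -0.14 ± 0.10 that did not pass (limma adjusted p = 0.304). Interferon-stimulated genes had 14 more positive and 2 more negative responses of 32 (median difference 0.16). Of 28 oxidative phosphorylation genes 23 were more positive (median 0.26), 15 with the length trend removed, beside opposite length trends in the 2 arms. Glycolysis and hypoxia genes showed 14 more positive and 2 more negative of 25, and sterol synthesis 9 more positive of 21. Over all genes the median difference was 0.00. For oxidative phosphorylation the median response was -0.21 in ERKO OVX and 0.07 in Ex3a OVX. For glycolysis and hypoxia it was -0.18 and 0.04, and for sterol synthesis -0.14 and 0.06. In these 3 lists the median lay further from 0 in ERKO OVX, where it was negative, than in Ex3a OVX.

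WT cells had no surgery or pellet, and their libraries held an estimated 37.05 to 44.05 M fragments. Set against them, 1926 genes (17.0%) had a more positive and 2146 (18.9%) a more negative response in Ex3a OVX. Genotype, surgery, hormone and library set cannot be told apart in this comparison. Across genes the response had a Pearson r of 0.499 with that of WT, above the 0.348 with ERKO OVX. Of the 45 genes over 2-fold higher in Ex3a OVX, 33 also rose in WT, 22 of them over 2-fold. Of the 30 over 2-fold lower, 27 also fell in WT, 12 of them over 2-fold. Over all 11346 genes 3499 rose and 3071 fell in WT. Of 26 interleukins and TNF family cytokines 17 had a more negative response than in WT (median difference -0.91). Starting levels differed as well. Il1a was at 31.7 and 38.6 FPKM in WT vehicle libraries against 138 and 139 in Ex3a OVX, and at 512 and 501 against 424 and 421 with agonists (difference -2.22 ± 0.16, limma adjusted p = 0.000105). Il6 was at 16.3 and 17.5 FPKM with vehicle and 192 and 189 with agonists in WT (difference -1.70 ± 0.08, limma adjusted p = 9.2e-07). For both genes the agonist levels of the arms lay closer together, as a ratio, than the vehicle levels. Il10 had a more positive response in Ex3a OVX (1.51 ± 0.16), being at 0.0558 and 0.066 FPKM with vehicle and 1.16 and 0.744 with agonists in WT. This order comes from the 1 FPKM added, since the ratio of the means in FPKM was 15.6 in WT and 8.18 in Ex3a OVX. More positive responses in Ex3a OVX were also those of Cd300e, at 0.0475 and 0.0421 and 0.216 and 0.178 FPKM in WT (3.11 ± 0.10), and Slc13a3, at 0.111 and 0.0572 and 0.274 and 0.186 (1.64 ± 0.11). Both lay under 1 FPKM in WT, where the 1 FPKM added makes changes smaller. For Slc13a3 the ratio of the means in FPKM was 3.75 in Ex3a OVX and 2.74 in WT. For Cd300e it was 27.3 and 4.4. Rnaset2a fell in WT, from 28.7 and 30.3 to 22.6 and 17.7 FPKM (-0.54 ± 0.09). MHC class II genes had 9 more negative responses of 12 (median -0.34), and Ciita, which fell in Ex3a OVX, rose in WT from 11.5 and 11.8 to 19.8 and 20.1 FPKM (0.72 ± 0.03).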

How the data were processed

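RNA was sequenced from marrow-derived dendritic cells as paired-end TruSeq libraries, per the labels' protocols. STAR, HTSeq, DESeq2, cutadapt and FastQC and the mm10 build are named, without versions, in the submitters' processing notes. The authors deposited 1 table of FPKM per gene and library. Which program computed the FPKM is not stated there. The labels speak of triplicates, and 2 libraries per group were analysed here.

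From the deposited FPKM, 1230 small RNA rows were left out and genes with at least 1 FPKM in 2 of 16 libraries were kept. A 0 was taken as missing where at least 12 other libraries all had 5 FPKM or more, which held for 5 values. Each ovariectomized pair was averaged, giving 12 samples with the 8 unoperated libraries. limma 3.58.1 in R 4.3.3 (trend and robust options, 1 coefficient per group, 4 residual degrees of freedom) was fitted to log2(FPKM + 1). Benjamini-Hochberg adjustment ran over all 11346 genes, with a threshold of 0.05. The ERKO OVX and WT comparisons come from the same fit. The lone averaged samples were assumed to vary like the unoperated groups. A run on simulated data gave every group the unoperated spread, so it could not check this assumption. Depth was estimated from FPKM steps. Only 43.2% to 47.7% of low values came within 0.1 of a whole fragment, so these depths are rough and no counts were recovered. Values under 0.001 FPKM occur 55 times in the 4 Ex3a OVX libraries, so levels near 0 are estimates.

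Genes named are those 12 rises and 12 falls with the largest change among genes past the threshold, without overlap and with at least 5 FPKM in the higher group, the 8 most positive and 8 most negative differences by a like filter, up to 6 members of each list and members whose role a list turns on. Predicted genes, and 27 symbols turned into dates, were not named, and 1 of the 12 falls is not reported here. The genes and lists were chosen with earlier results of these data known. Transcript lengths are those of the longest GENCODE vM21 transcript. Alternatives changed the FPKM added, the filter, the scaling, the samples fitted and the libraries left out, and removal of a length trend was added after the data were seen.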

Additional observations from a re-analysis of the deposited data

Results flagged for a closer look

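The agonist responses of Ex3a OVX and ERKO OVX differed by the limma test of the difference itself for each gene given here. The response was more positive in Ex3a OVX by 2.70 log2 units for Cd300e, 2.05 for Slc13a3, 1.85 for Il10, 1.66 for Fcrls, 1.62 for Il12b, 1.50 for U90926, 1.49 for Rnaset2a and 1.37 for Marco. The difference was -1.61 for Cxcl2, -1.57 for Ear3, -1.55 for Csf3, -1.32 for Nlrp3 and -1.22 for Xist, and for Pan3, Cxcl1 and Hivep3 -1.19 each. Fcrls stayed low in ERKO OVX, at 0.306 and 0.277 FPKM with vehicle and 0.312 and 0.37 with agonists, against 13.4 and 12.8 with agonists in Ex3a OVX. Pan3 went from 5.57 and 6 to 8.2 and 8.26 FPKM in ERKO OVX and from 7.57 and 8.45 to 4.32 and 4.39 in Ex3a OVX.

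Opposite responses were seen for 321 genes that rose in Ex3a OVX and fell in ERKO OVX and for 320 that did the reverse, each with a difference past the test. They are 14.8% of the rises and 15.5% of the falls in Ex3a OVX. Of all genes 19.2% fell and 18.4% rose in ERKO OVX, shares that do not require the difference to pass. The conflicting genotype tags of ERKO OVX, the lower depth of the Ex3a OVX agonist libraries and the opposite trends with transcript length touch all of these results, and their part was not tested gene by gene.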

How the results depend on the processing

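Counts of genes over 2-fold depended on the FPKM added before taking logs. With 0.1 FPKM added 88 genes were higher and 107 lower, and with 5 FPKM added 25 and 7, because that constant sets how far low genes can move. Against ERKO OVX, 2883 genes were more positive and 2651 more negative with all 16 libraries as separate samples, and 1173 were more positive after quantile normalization. The cause of the last was not tested. Leaving out each of the 16 libraries in turn gave 2038 to 2322 genes higher, 1952 to 2177 lower, 45 to 49 over 2-fold higher and 27 to 33 over 2-fold lower. It gave 1755 to 1984 more positive and 1526 to 1793 more negative against ERKO OVX, and 1604 to 2030 and 1805 to 2273 against WT.

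Libraries with the same number did not deviate together (r = 0.01 in Ex3a OVX). Because libraries of a group in this arm differed by about sampling noise, this cannot tell whether the numbers pair them. With the replicate number as a replicate block over all 16 libraries, 2982 genes were higher and 2781 lower, and 2790 more positive and 2531 more negative against ERKO OVX. Removing the length trend left 2120 higher and 1990 lower.

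Over 40 results on named genes, 1089 of 1103 values under alternatives kept direction and call and 14 lost the call, for the differences of U90926, Ear3 and Cxcl1 from ERKO OVX. Direction was kept in all 1103. Many of these could not change it, since leaving out a library of a group outside the comparison leaves the fold change as it was. These genes were chosen for large changes past the threshold in the same data, so these counts do not show how other genes would fare. With 1 averaged sample per group and agonist libraries of 17.8 and 18.3 M fragments, changes of genes under 1 FPKM are poorly resolved.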

Other observations

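Receptor families split internally. Of 13 Cd300 and Trem family genes 2 rose, Cd300e and Trem3, and 6 fell. The inhibitory receptors Cd300a and Cd300lf fell from 25.8 and 26.2 to 12.6 and 14 FPKM (-0.91 ± 0.07, limma adjusted p = 1.81e-05) and from 70.1 and 71.2 to 40.9 and 41.9 (-0.76 ± 0.04). DAP12, encoded by Tyrobp and the adaptor of activating receptors such as Trem2, fell from 1967 and 1959.5 to 1591 and 1584 FPKM, while the Fc receptor γ chain Fcer1g rose from 2075 and 2070.2 to 2577 and 2527. Among 13 C-type lectin receptors 5 rose and 4 fell. Clec4e, or Mincle, a receptor for mycobacterial glycolipids, rose from 247 and 249 to 386 and 386 FPKM (0.64 ± 0.07), as did Clec4a1 (0.66 ± 0.05). Clec7a, or Dectin-1, the receptor for fungal glucans, fell from 296 and 296 to 231 and 226 (-0.37 ± 0.06). The Fc receptor-like gene Fcrl5 was nearly absent with vehicle, at 0.106 and 0.0516 FPKM, and reached 1.12 and 1.4 (1.07 ± 0.08, limma adjusted p = 1.13e-05). Cytokine and growth factor receptors fell in 10 of 22 cases and rose in 3. The decoy receptor Il1r2 and the transforming growth factor receptor Tgfbr2 fell by 0.58 and 0.52 log2 units, and Il10ra, the receptor chain for interleukin 10, by 0.34. Tnfrsf1b, a receptor of TNF, rose from 244 and 245 to 369 and 362 FPKM (0.58 ± 0.03).

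Enzymes of immune metabolism rose in 9 of 20 cases and fell in 6. Irg1, which makes itaconate, rose from 556 and 554 to 820.2 and 808 FPKM (0.55 ± 0.06), Nos2, which makes nitric oxide, from 69.8 and 67.5 to 100.5 and 98.8 (0.53 ± 0.06), and Sod2, the mitochondrial superoxide dismutase, from 216 and 213 to 349.8 and 348 (0.70 ± 0.05). The leukotriene genes Alox5 and Alox5ap and the constitutive prostaglandin synthase Ptgs1 fell by 0.62, 0.62 and 0.69 log2 units. Of 19 STAT and SOCS pathway genes 8 rose and 2 fell. The falls numbered 1 without the second vehicle library of the arm, either KO vehicle library or any WT library or with the length trend removed, and 5 with all 16 libraries as separate samples. Stat4, which relays interleukin 12, went from 6.02 and 6.28 to 11.5 and 11.2 FPKM (0.78 ± 0.06) and Socs3, a brake on interleukin 6 signals, from 63 and 63.1 to 107 and 107 (0.76 ± 0.05). In the inflammasome list Casp1 and Casp4 rose by 0.45 and 0.41, and Pycard, the adaptor ASC, fell by 0.22 log2 units. Lysosomal proteases and inhibitors fell in 11 of 16 cases, with the lysosomal regulators Mitf and Tfeb among them (-0.38 and -0.30). Of 16 matrix protease genes 6 rose and 7 fell, with 3 rises without the second vehicle library of the arm or with no filter on low values. The falls included the inhibitor Timp2 from 29.9 and 29.2 to 14.9 and 13.2 FPKM (-1.02 ± 0.06) and the plasminogen activator Plau from 84.7 and 83.3 to 44.5 and 46 (-0.88 ± 0.11). Lcn2, an iron-binding acute phase protein, rose from 603 and 594 to 1374 and 1362 FPKM (1.19 ± 0.12), in a list where 5 of 9 rose and 1, Hp, fell.

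Chosen after their values were seen, several genes outside the lists also changed about 2-fold. Prkcb, a protein kinase C, went from 12.9 and 12.8 to 32.6 and 32.2 FPKM (1.27 ± 0.06), and Serp1, a chaperone-like protein of the endoplasmic reticulum, from 193 and 190.3 to 388 and 385 (1.01 ± 0.04). S100a4, a calcium-binding protein, fell from 754 and 751 to 376 and 370.4 FPKM (-1.01 ± 0.03).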
